A study of Sus scrofa with 4 samples.

Results

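The genes described here are 10 transcription factors that steer fat cell formation or that sense lipids and hormones in fat cells: the nuclear receptors PPARG, PPARA, PPARD, RXRA, NR1H3, VDR and ESR1 and the C/EBP factors CEBPA, CEBPB and CEBPD. Their probes were chosen by the gene name given in the scanner output, and every probe of a gene was kept. Of 34853 gene names on the array, 9 were members, because no probe carried the name RXRA. They were measured by 22 of 43603 probes, of which 15 were well above background on all 4 arrays and 3 on none.

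The study followed porcine intramuscular preadipocytes (PIP), a cell line used between passages 26 and 35, as they became adipocytes (pMA), and asked how pMA respond to serotonin and to the cytokine TNF-α. PIP cells were not stimulated, and were taken 4 days after confluence with 10% FBS, without insulin, dexamethasone, octanoate or oleate. To obtain pMA, PIP cells were held for 4 days after confluence and then for 4 days in medium with 10% FBS, 50 ng/ml insulin, 0.25 μM dexamethasone, 2 mM octanoate and 200 μM oleate. Stimulated pMA received 100 μM serotonin (the labels write this dose per ml) or 2.5 µg/ml TNF-α for 12 h. All 3 pMA groups had thus received insulin, dexamethasone and both fatty acids, and these agents were not separated from differentiation itself.

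PPARG and CEBPA are the central activators of the fat cell programme, and they switch on each other and many genes of lipid storage. CEBPB and CEBPD are known to act earlier, soon after an inducing stimulus such as a glucocorticoid, and lead to the expression of PPARG and CEBPA. PPARs, NR1H3 (also called LXRα) and VDR bind DNA as partners of a retinoid X receptor such as RXRA and respond to fatty acids, oxysterols and vitamin D, respectively, whereas ESR1 responds to estrogen.

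One array was hybridised for each of the 4 conditions, with RNA pooled within the group according to the methods. No difference therefore has a replicate check, and no test is possible. Levels are log2 intensities relative to the 75th percentile of the array, so that 0 is the level of that percentile. The 75th percentile of intensity lay between 479 and 566, and between 56.5% and 66.0% of spots were well above background. Of 50 probes repeated on each array, the 21 to 25 well above background varied between spots with a standard deviation of 0.10 to 0.13 (log2), and those among them below the 75th percentile, where PPARG and VDR lay, with 0.12 to 0.17. Over all repeated probes, those at background included, it was 0.34 to 0.39. Combined over both arrays, the technical standard deviation of the probes well above background was 0.17 for log2 ratios of pMA over PIP and 0.15 to 0.16 for the others. It covers the noise of spots within an array and nothing of the spread between cultures, and it is a low estimate for dim probes. Levels are compared only for the same probe between arrays.

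The labelled cell type was checked on 8 adipocyte markers, of which 6 were well above background on each array. The summed level of these markers (log2) was 1.03 in PIP, 2.47 in pMA, 4.17 after serotonin and 3.51 after TNF-α. LPL at 3.41 and CD36 at 2.65 carried the sum of the serotonin array, while PCK1 and LEP differed little between arrays. FABP4, a fatty acid carrier of fat cells, was not well above background in PIP and was so in all 3 pMA groups, at -1.67 in pMA, -4.44 after serotonin and -0.23 after TNF-α. PLIN1, the coat protein of large lipid droplets, was not well above background on any array. ADIPOQ, which encodes adiponectin, was well above background in PIP alone by its brightest probe, at -4.53, and not in any pMA group, against the order of the labels. Of 6 preadipocyte or fibroblast markers, 5 had a probe. Their summed level was 8.80 in PIP, 9.04 in pMA, 8.65 after serotonin and 8.81 after TNF-α, and so was not lower in pMA than in PIP. VIM carried this sum, at 8.61 in PIP and 8.89 in pMA. Of 6 skeletal muscle markers, 4 were well above background on each array, whereas MYOD1 and MYF5 were at background throughout. ACTA1 was at 9.31 in PIP, 9.33 in pMA, 7.40 after serotonin and 9.22 after TNF-α. The others did not share a direction after serotonin. DES was at 3.26 in pMA and 2.24 after serotonin, MYOG at -0.37 and -0.38, and PAX7 at 0.17 and 0.56. In PIP, MYOG was at -0.88 and PAX7 at -0.63. The part of a changing cell mixture in the values below was not tested. In RNA from a whole culture, more cells of a type and more RNA per cell cannot be told apart.

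During differentiation, every member that gave a ratio lay above its level in PIP. CEBPB, VDR, ESR1 and PPARG were at least 2-fold higher in pMA, CEBPD, PPARD and NR1H3 were higher by less, and no member was lower. For PPARD and NR1H3 this depended on the scaling. When arrays were scaled to their medians, PPARD at 0.15 and NR1H3 at 0.06 lay within the technical standard deviation of 0.17. The probes that carry the names PPARA and CEBPA were not well above background in PIP or in pMA. Of the 7 members with a ratio, 4 were at least 2-fold higher and 0 at least 2-fold lower. Of all gene names with a ratio, 9.92% were at least 2-fold higher, 3.56% were at least 2-fold lower and 58.0% lay above 0. The median log2 ratio of the 7 members was 1.07, with a range of 0.41 to 1.71, beside a median of 0.12 over all gene names.

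**Figure D1:**
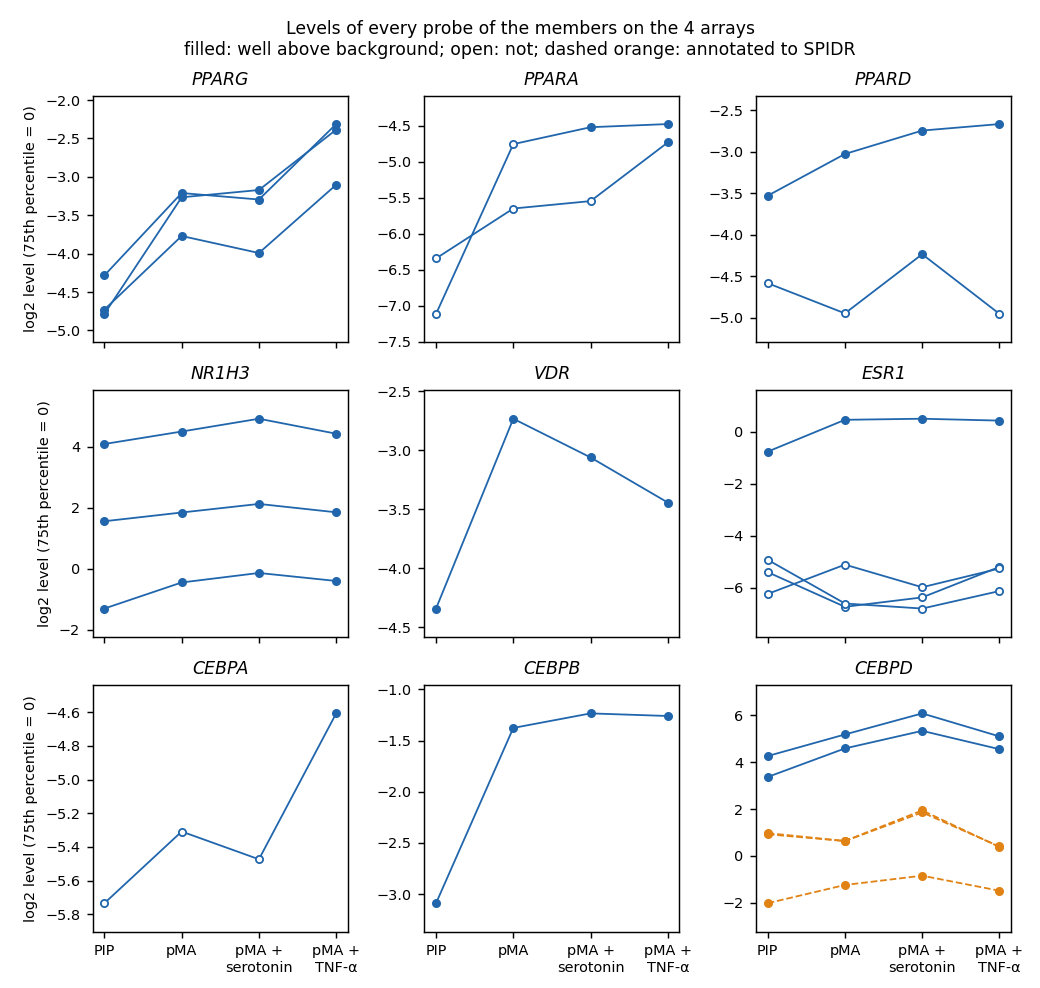
Log2 level of each probe of the 9 genes with a named probe (y axis, 75th percentile of the array at 0, range set for each panel) on the 4 arrays (x axis), 1 point an array. Filled points are well above background and open points are not. The dashed orange probes in the CEBPD panel are described in the files as the neighbouring gene SPIDR. All 3 PPARG probes were lowest in PIP and highest after TNF-α, and VDR was highest in unstimulated pMA.

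PPARG, the lipid-activated receptor at the head of the programme, had 3 probes. They overlap in pairs by 40 to 55 of their 60 bases and are shown because they are not independent readings of the transcript, with the 38 bases common to all 3 in capitals.
A_72_P146711: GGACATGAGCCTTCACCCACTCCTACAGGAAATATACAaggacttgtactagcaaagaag
A_72_P441339: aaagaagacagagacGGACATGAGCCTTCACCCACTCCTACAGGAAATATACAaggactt
A_72_P636927: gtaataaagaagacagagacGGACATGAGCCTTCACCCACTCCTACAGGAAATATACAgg

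These sequences are printed 5′ to 3′ as the files list them. Counted from the 5′ end of A_72_P441339, the probe A_72_P636927 differs from it by A54G over the 55 bases they share. The files give no position in the genome for any member probe, and the genome build is not given in the sources used here.

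The brightest PPARG probe, A_72_P441339, had levels of -4.28 in PIP, -3.21 in pMA, -3.30 after serotonin and -2.31 after TNF-α. In intensity units these were 26.5, 51.7, 57.6 and 113. All 3 probes were well above background on all 4 arrays, with PIP lowest and TNF-α highest, and they lay at the dim end of the array. The log2 ratio of pMA over PIP was 1.07 by this probe, 0.96 by A_72_P146711 and 1.52 by A_72_P636927, so that 8.51% of gene names had a higher ratio than PPARG. It was under 2-fold in 3 settings, at 0.72 when arrays were scaled to their medians, 0.70 after quantile normalization and 0.65 after normexp background correction.

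PPARA, the receptor known for fatty acid oxidation, was not well above background before stimulation. Its brightest probe had levels of -7.11 in PIP and -4.75 in pMA, neither well above background, and of -4.52 after serotonin and -4.48 after TNF-α, both well above it. No ratio of pMA over PIP is given for this reason. The faintest level well above background was -4.64 in pMA, -5.12 after serotonin and -5.25 after TNF-α. The PPARA level in pMA lay above those of both stimulated arrays, so its change of flag does not show a change in expression. With no filter on dim probes, the log2 ratio over pMA was 0.24 for serotonin and 0.28 for TNF-α. The second probe, described only as a liver clone, was well above background after TNF-α alone. On that array 66.0% of spots were well above background, beside 56.5% in pMA. PPARD, the broadly expressed PPAR, had levels of -3.53, -3.02, -2.74 and -2.66 in PIP, pMA, serotonin and TNF-α by its brightest probe, and a log2 ratio of 0.50 of pMA over PIP. The second PPARD probe was well above background only after serotonin.

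NR1H3, the oxysterol receptor, was read by 3 probes, all well above background on all arrays. The brightest had levels of 4.09 in PIP, 4.50 in pMA, 4.92 after serotonin and 4.43 after TNF-α. The log2 ratios of pMA over PIP were 0.41, 0.29 and 0.85, higher in pMA for each probe. Of all gene names, 31.7% had a higher ratio than the brightest probe of NR1H3, so its difference was common on these arrays.

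VDR, the vitamin D receptor, had a single probe, with levels of -4.34 in PIP, -2.73 in pMA, -3.06 after serotonin and -3.44 after TNF-α. Unstimulated pMA was the highest of the 4. The log2 ratio of pMA over PIP was 1.61, and 2.52% of gene names had a higher one. This probe was dim, with an intensity of 25.4 in PIP and 71.9 in pMA, and its ratio was 0.66 after normexp background correction.

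ESR1, the estrogen receptor, had 4 probes, of which A_72_P444427 was well above background on every array and the other 3 on none. The first and a pair that shares 57 bases (capitals) are shown because they are assigned to the same transcript yet gave opposite detection.
A_72_P444427: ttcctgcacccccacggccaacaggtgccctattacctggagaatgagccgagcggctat
A_72_P077606: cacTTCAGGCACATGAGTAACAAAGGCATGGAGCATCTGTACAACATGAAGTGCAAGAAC
A_72_P441244: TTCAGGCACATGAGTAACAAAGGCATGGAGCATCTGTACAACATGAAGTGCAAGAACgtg

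The detected ESR1 probe contains more G and C, 60%, than the 45% of the other sequences shown. Its levels were -0.76 in PIP, 0.47 in pMA, 0.51 after serotonin and 0.44 after TNF-α. The 3 pMA groups lay within 0.07 of each other and above PIP, with a log2 ratio of 1.22 of pMA over PIP, which 5.98% of gene names exceeded. The ratio was 0.88 when arrays were scaled to their medians. The undetected probes give no ratio for ESR1, so the value rests on 1 of 4 probes.

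CEBPA, the partner of PPARG in terminal differentiation, had 1 probe under its name, with levels of -5.73 in PIP, -5.31 in pMA, -5.47 after serotonin and -4.61 after TNF-α. Only the last was well above background, on the array with the largest share of such spots, 66.0%. Another 2 probes, listed under assembly names, carry the RefSeq accession of pig CEBPA in the files, and were looked up after the data had been seen. The named probe and the first 30 bases of the others are shown because they gave different results for what the files describe as the same gene.
A_72_P399728: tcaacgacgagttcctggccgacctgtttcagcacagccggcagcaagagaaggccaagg
A_72_P344038: tctagtattaaaggaataaccctgtgcctt
A_72_P412888: gttctcttctttgggggagaacgtagagtt

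The probe A_72_P412888 had levels of -2.14 in PIP, 0.18 in pMA, -0.48 after serotonin and -0.69 after TNF-α, and A_72_P344038 had levels of -3.89, -2.27, -2.83 and -2.89 in the same order. Both were well above background on all arrays, lowest in PIP and highest in unstimulated pMA. Their log2 ratios of pMA over PIP were 2.32 and 1.61. The named probe, with 60% G and C, gave no ratio, whereas A_72_P412888 contains 35% and A_72_P344038 45%. The files describe A_72_P344038 by a protein of another organism, and its link to CEBPA rests on the accession alone.

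CEBPB, an early activator, had 1 probe under its name and 3 overlapping probes listed under a clone of its 3′ UTR. The named probe and the first 30 bases of a clone probe are shown for the same reason.
A_72_P399493: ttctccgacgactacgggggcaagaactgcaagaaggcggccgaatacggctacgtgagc
A_72_P213602: gaggcatctgtatatttgggaatcttttcc

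The named CEBPB probe had levels of -3.09 in PIP, -1.38 in pMA, -1.24 after serotonin and -1.26 after TNF-α, so that PIP was low and the 3 pMA groups were close together. Its log2 ratio of pMA over PIP was 1.71, the highest of the members by named probes, and 2.02% of gene names exceeded it. The clone probe A_72_P213602 had levels of 4.69, 5.10, 5.27 and 5.26, and the 3 clone probes had ratios of 0.33 to 0.43. All 4 probes were higher in pMA, but the size differed by more than the technical standard deviation of 0.17, and the 2-fold call was lost with the clone probes.

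CEBPD, which is known to be induced by glucocorticoids and cytokines, had 5 probes under its name, and the files describe 3 of them as SPIDR, a DNA repair gene that is its neighbour in the RefSeq annotation of assembly Sscrofa11.1. The brightest probe described as CEBPD had levels of 4.26 in PIP, 5.19 in pMA, 6.09 after serotonin and 5.10 after TNF-α. The other, A_72_P345453, had levels of 3.37, 4.59, 5.34 and 4.56. Both were lowest in PIP and highest after serotonin, with log2 ratios of pMA over PIP of 0.92 and 1.22. The probes described as SPIDR had ratios of -0.29, -0.34 and 0.78, and the probes with the 2 negative ratios overlap by 48 bases.

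RXRA, the common partner of the PPARs, had no probe under its name. A probe under an assembly name that the files describe as retinoid X receptor alpha had levels of -2.47 in PIP, -2.61 in pMA, -2.71 after serotonin and -2.12 after TNF-α. It was slightly lower in pMA than in PIP, with a log2 ratio of -0.14. With probes taken by accession or description for all 10 members, 9 had a ratio of pMA over PIP and 4 were at least 2-fold higher, with CEBPA in and CEBPB out.

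**Figure D2:**
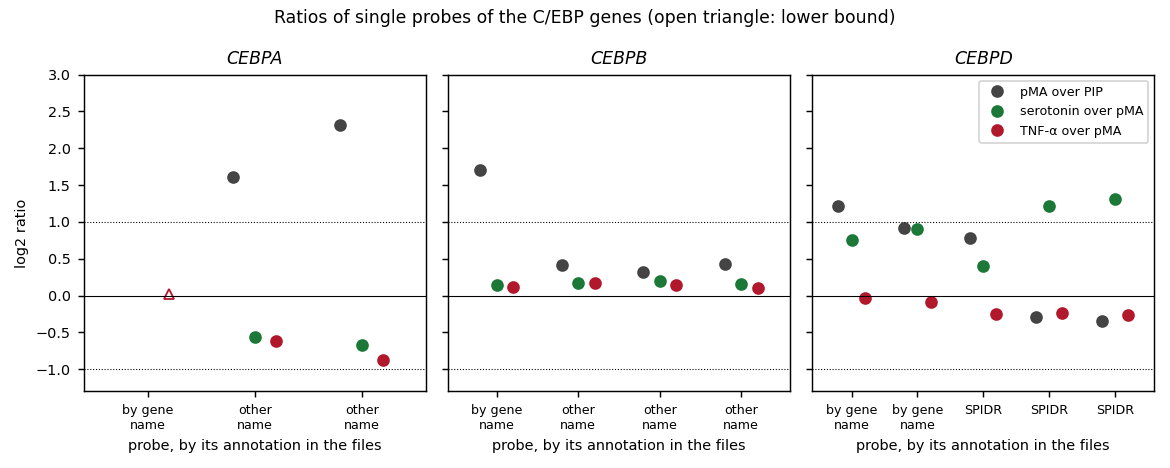
Log2 ratio (y axis) of each probe of the 3 C/EBP genes (x axis, by its annotation in the files) for pMA over PIP (grey), serotonin over pMA (green) and TNF-α over pMA (red). Dotted lines mark 2-fold and the open triangle is a lower bound. The CEBPA probes under other names had ratios of 1.61 and 2.32 of pMA over PIP, and the named CEBPB probe of 1.71 against 0.33 to 0.43 for the probes of its clone.

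After serotonin, CEBPD was the member with the largest difference from unstimulated pMA, 0.90 and 0.75 on the log2 scale by the probes described as CEBPD. NR1H3 was 0.42 and PPARD 0.28 higher, VDR was lower with a ratio of -0.33, and PPARG, CEBPB and ESR1 lay within the technical standard deviation of 0.15. Of 8 members with a ratio, 6 were above 0 and 2 below, beside 51.1% of all gene names above 0. Among the 6, PPARA is a bound, and such a bound is kept only above 0. At the 2-fold cutoff, 0 members were higher and 0 lower, beside 2.08% of gene names higher and 4.74% lower. The median log2 ratio of the members was 0.13 and that of all gene names 0.01.

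For CEBPD, 2.89% of gene names had a higher ratio after serotonin. All 5 probes under its name were higher, and the probes described as SPIDR had ratios of 0.40, 1.22 and 1.31. The 3 PPARG probes, at -0.22, -0.08 and 0.09, did not share a direction. The NR1H3 probes had ratios of 0.31, 0.28 and 0.42. PPARA was at least 1.08-fold higher and the second PPARD probe at least 1.32-fold higher, as lower bounds against pMA where they were not well above background. The CEBPA probes under assembly names had ratios of -0.67 and -0.55, both lower after serotonin. The CEBPD ratio came to 1.00 after quantile normalization and to 1.01 after scaling to spike-in controls, just past 2-fold.

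After TNF-α, PPARG was the highest of the members relative to unstimulated pMA, with log2 ratios of 0.90, 0.67 and 0.88 by its 3 probes. PPARD was 0.36 higher, VDR was lower with a ratio of -0.71, and CEBPB, CEBPD, NR1H3 and ESR1 lay within the technical standard deviation of 0.15. The members had a median of 0.03, beside 0.01 for all gene names. Of 9 members with a ratio, 5 were above 0 and 4 below, beside 50.8% of all gene names above 0. Among the 5, PPARA and CEBPA are bounds, dim in pMA, and such a bound is kept only above 0. The median of the 7 members well above background on all 4 arrays was -0.03, beside -0.02 for all gene names. At the 2-fold cutoff, 0 members were higher and 0 lower, beside 2.21% of gene names higher and 1.34% lower.

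For PPARG, 2.71% of gene names had a higher ratio after TNF-α, and for VDR 96.5% did. The PPARG ratio was 0.38 after normexp background correction, whose offset draws dim ratios toward 0. PPARA was at least 1.12-fold higher, and the named CEBPA probe at least 1.02-fold higher. The CEBPA probes under assembly names had ratios of -0.88 and -0.62. The named CEBPA probe was dim in pMA, so its bound could only lie above 0 and gives no direction for this gene. The RXRA probe had a ratio of 0.49. The ratios for serotonin and for TNF-α share the array of unstimulated pMA, whose chance values enter both.

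**Figure D3:**
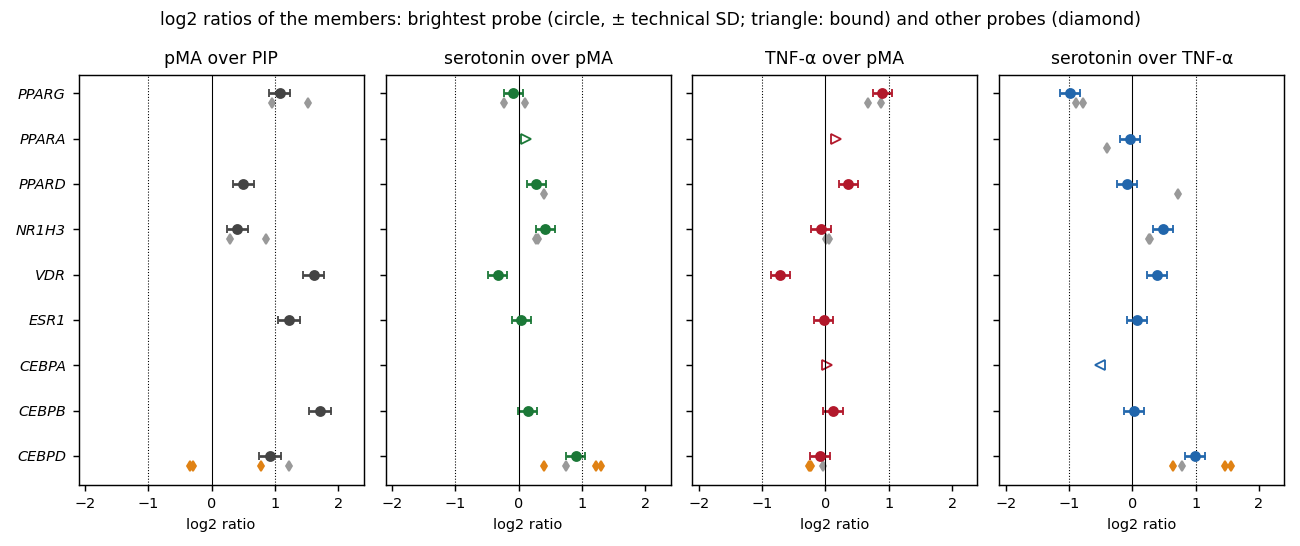
Log2 ratio (x axis) of 9 members (y axis) in the 4 comparisons. Circles are the brightest probe of a gene with the technical standard deviation (0.15 to 0.17) as bars, triangles are bounds, diamonds are other named probes with orange for those described as SPIDR, and dotted lines mark 2-fold. CEBPD at 0.90 after serotonin and PPARG at 0.90 after TNF-α were the highest of the brightest probes against unstimulated pMA.

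When the stimulated arrays were set against each other, without the unstimulated one, CEBPD was higher after serotonin and PPARG higher after TNF-α. The log2 ratios of serotonin over TNF-α were 0.98 and 0.78 for the probes described as CEBPD, and -0.98, -0.89 and -0.79 for those of PPARG. Of 9 members with a ratio, 5 were above 0 and 4 below, with 0 at least 2-fold higher and 0 at least 2-fold lower. Among the 4, CEBPA is a bound, dim after serotonin, and such a bound is kept only below 0. Of all gene names, 1.82% were at least 2-fold higher, 5.08% were at least 2-fold lower and 46.2% lay above 0. NR1H3 had a ratio of 0.49 and VDR of 0.38, both larger than the technical standard deviation of 0.16, and the named CEBPA probe was at least 1.43-fold lower after serotonin. The CEBPA probes under assembly names had ratios of 0.21 and 0.06, the second within the technical standard deviation. For CEBPD the ratio ranged from 0.98 to 1.12 with the processing and passed 2-fold in 3 settings.

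**Figure D4:**
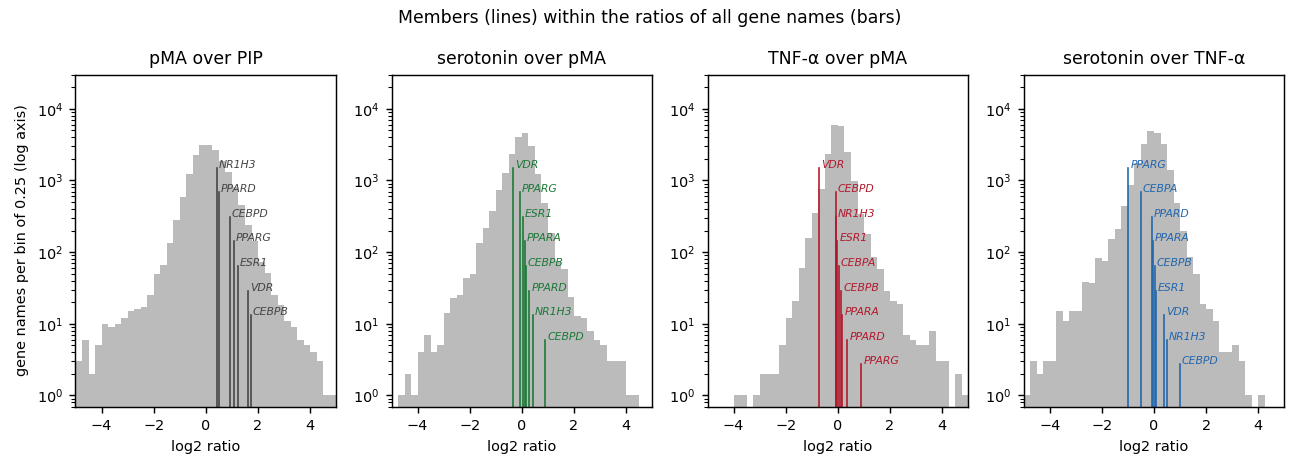
Number of gene names per bin of 0.25 in log2 ratio (grey bars, log axis) in the 4 comparisons, with the members at their log2 ratio or bound as coloured lines whose heights serve only to separate the names. In the comparison of pMA with PIP all 7 members lay above 0, from 0.41 to 1.71, as did 58.0% of all gene names. In the other comparisons the members lay on both sides.

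Genes that the members are known to control were described from lists written from general knowledge. The list for PPARG and CEBPA holds all 8 adipocyte markers used above, so its values are not independent of that check. Of 19 known targets of PPARG and CEBPA, 16 had a probe and 14 a ratio of pMA over PIP, of which 5 were at least 2-fold higher and 0 lower, with a median of 0.26. CD36, a fatty acid transporter, had a ratio of 5.17 with 4 probes from 1.19 to 5.17. ANGPTL4, a secreted inhibitor of lipoprotein lipase, had a ratio of 3.94. CIDEC, a lipid droplet protein, had a ratio of 3.87 with the other probe at 0.75, and the droplet coat gene PLIN2 of 3.13. FABP4 was 8.48-fold higher by the plain ratio to its PIP reading of -4.76, which was not well above background, so it has no rank among them.

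After serotonin, 2 of 13 targets with a ratio were at least 2-fold higher, LPL at 2.41 and CD36 at 1.47, and 2 were lower, FABP4 at -2.77 and CIDEA at -2.06. LPL encodes the lipase that frees fatty acids from lipoproteins, and CIDEA is a droplet protein like CIDEC. After TNF-α, 3 were higher, CIDEC at 1.94, FABP4 at 1.45 and LPL at 1.28, and 0 lower. FABP4 thus lay below pMA after serotonin and above it after TNF-α, with a ratio of serotonin over TNF-α of -4.22 and 6 probes from -4.67 to -1.53. CIDEA at -2.13, CIDEC at -1.67 and SLC2A4, the insulin-dependent glucose transporter and the fifth by size, at -1.12 were also at least 2-fold lower after serotonin than after TNF-α, and LPL was higher at 1.13. The medians of the list were -0.11 for serotonin, 0.20 for TNF-α and -0.28 for serotonin over TNF-α.

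Of 8 known targets of PPARA and PPARD, 7 had a ratio of pMA over PIP and 2 were at least 2-fold higher, with a median of 0.17. PDK4, a kinase that spares glucose by blocking pyruvate oxidation, was at least 28.0-fold higher in pMA by its brightest probe. Its 8 probes with a log2 ratio or bound ranged from 1.02 to 4.81, with the brightest at the top. CPT1A, which admits fatty acids to mitochondria, had a ratio of 1.54. PDK4 was also the only gene of this list past 2-fold between stimulations and pMA, with ratios of 1.91 after serotonin and -1.49 after TNF-α. Its ratio of serotonin over TNF-α was 3.40, with 9 probes from 1.55 to 3.52. The medians for serotonin, TNF-α and serotonin over TNF-α were 0.18, 0.19 and 0.10.

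**Figure D5:**
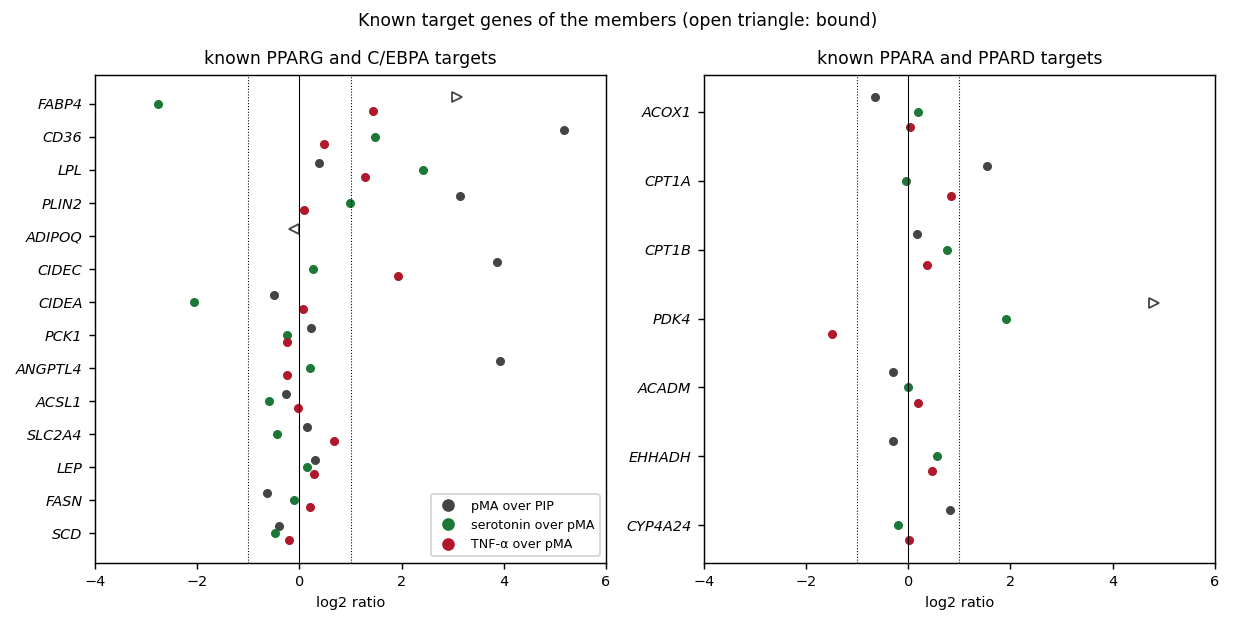
Log2 ratio (x axis) of known target genes (y axis, those with a ratio) of PPARG and CEBPA (left) and of PPARA and PPARD (right) for pMA over PIP (grey), serotonin over pMA (green) and TNF-α over pMA (red). Triangles are bounds and dotted lines mark 2-fold. By their brightest probes, FABP4 was at -2.77 after serotonin and 1.45 after TNF-α, and PDK4 at 1.91 and -1.49.

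Of 6 known NR1H3 targets 4 had a ratio, with medians of 0.16 for pMA over PIP, 0.29 for serotonin, -0.19 for TNF-α and 0.59 for serotonin over TNF-α. APOE, a lipid carrier, was higher in pMA by at least 2.18-fold. MYLIP, which targets the LDL receptor for degradation, had a ratio of -1.43 after TNF-α and 1.25 for serotonin over TNF-α. Of 6 known VDR and ESR1 targets at most 2 had a ratio in a comparison and 0 passed 2-fold, with medians of 0.08, -0.20, 0.14 and -0.48 in the same order.

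Relatives and partners of the members were described in the same way. Of 25 other nuclear receptors 15 had a probe and 9 or 10 a ratio, with medians of -0.12, 0.004, -0.02 and 0.15 in the same order. NR4A2, an early response receptor, was the only one past 2-fold, with ratios of 2.81 after serotonin and 2.22 after TNF-α. Of 5 other C/EBP proteins and bZIP partners, CEBPE was the only one past 2-fold, with a ratio of 3.04 of pMA over PIP by its single probe, and the medians were -0.31, -0.04, -0.14 and 0.05. Of 16 coregulators 10 had a ratio and 0 passed 2-fold in any of the 4 comparisons, with medians of -0.18, 0.21, -0.12 and 0.31.

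Of 10 other factors that promote adipogenesis, KLF15 was the only one past 2-fold, with ratios of 1.01 of pMA over PIP and 1.53 after serotonin. The medians of that list were 0.09, 0.48, 0.29 and 0.65 over 6 or 7 genes. Of 8 factors that restrain adipogenesis, 0 passed 2-fold, with medians of 0.05, 0.11, 0.21 and -0.25.

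Genes with the most similar profile over the 4 arrays were sought among 4710 gene symbols well above background on all arrays, by the Euclidean distance between profiles centred on their means (log2). SIRPA at 0.19 and NLRP3 at 0.25 were nearest to PPARG, KIF7 at 0.13 and GPNMB at 0.15 to CEBPB, and ACRBP at 0.04 and CEP250 at 0.12 to CEBPD. SAL1 at 0.11 and FRRS1 at 0.17 were nearest to VDR, and E4F1 at 0.02 and TRPV4 at 0.08 to ESR1. Each distance rests on 4 points.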

How the data were processed

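The authors hybridised Cy3-labelled cRNA of pooled RNA from 4 conditions to porcine 60-base oligonucleotide arrays and deposited the output of Agilent Feature Extraction 10.7.3.1, with a processed intensity per spot, corrected for background, and flags (coded as other values) for outliers and for spots well above background. The methods name a mouse array read with GenePix in one paragraph and a porcine array in 2 colors in another, whereas the deposited files hold 1 channel of a porcine array. All 4 arrays lay on 1 slide. The value table deposited by the authors holds a linear ratio: it equals the processed intensity over the array's 75th percentile of all features, with medians of 0.0581 (PIP), 0.0766 (pMA), 0.0735 (serotonin) and 0.0797 (TNF-α), and its genes are not centred. It was used as an alternative. No value column was left unused.

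From these files, log2 intensities were reduced by the 75th percentile of non-control spots, outlier spots (1 to 12 an array) were left out and spots of a probe averaged with Python 3.11.15, numpy 2.4.6 and pandas 2.3.3. Each gene took the values of its brightest probe on average over the arrays. If only 1 side of a ratio was well above background, the dim side was set no lower than the faintest level that passed on that array, which gives a lower bound ("at least"). A bound is kept only where the detected side is the higher one. Spots above that faintest level can still fail the flag, so it is no strict detection limit. Where the dim reading itself lay above it, as for FABP4 in PIP, the bound equals the plain ratio. If both sides were dim no ratio was taken. The cutoff was 2-fold. Quantile normalization and normexp (offset 50) were run in R 4.3.3 with limma 3.58.1. The calculation was tested on simulated data. There the dimmed probes were set under the faintest passing level, so bounds from dim readings above that level were not tested. With 1 array a group no test was run, and the number of arrays limits the precision.

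All members are named with every probe. Of each list at most 4 genes past 2-fold are named in a comparison, those with the largest ratios, and for members with a range of at least 1 (log2) the 2 nearest profiles. Genes outside this rule are named as such. A few listed genes are not reported here and were left out of their lists' counts and medians. Members and lists were chosen with earlier results of these data known. Of the alternatives, 9 were set at the start and 1, the matching of probes by accession or description, was chosen after seeing the data.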

Additional observations from a re-analysis of the deposited data

How the results depend on the processing

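The number of members at least 2-fold higher in pMA than in PIP was 4. It was 2 after scaling to the median (CEBPB and VDR), 2 after normexp background correction (CEBPB and ESR1) and 0 at a 4-fold cutoff. In the other 7 settings it was 4 or 5, but not always of the same members. After quantile normalization PPARG fell under 2-fold (0.70) and CEBPD passed it (1.07), CEBPD was added with spike-in controls (1.30) and PPARA with no filter on dim probes, and CEBPA replaced CEBPB with probes matched by accession. For serotonin over pMA the number moved from 0 to 1 (CEBPD) after quantile normalization and after scaling to spike-in controls, and for serotonin over TNF-α from 0 to 1 (CEBPD) after these and after scaling to the median. For TNF-α over pMA it was 0 in every setting. Scaling to the median moved the median log2 ratio of pMA over PIP of all gene names from 0.12 to -0.22 and that of the members from 1.07 to 0.72, and scaling to spike-in controls moved them to 0.52 and 1.45. Both scalings shift every gene alike. After normexp the median of the members was 0.66 while that of all gene names stayed at 0.12, and with no filter on dim probes that of all gene names was 0.42 with the members at 1.07. Over all settings, 247 of 287 member ratios moved by less than the technical standard deviation, 40 moved by more, and 11 changed sign, none of them at least 2-fold. Part of the 247 was fixed in advance. A measured ratio kept by the filter settings is unchanged, and the value table differs by a constant for each array. Probe settings leave genes without other probes unchanged. For pMA over PIP, PPARG, PPARD, CEBPB and VDR moved by more after quantile normalization, after both scalings and after normexp. CEBPD, NR1H3 and ESR1 did so in some of these. The largest sign change was that of CEBPA in TNF-α over pMA, from a bound of 0.03 by its named probe to -0.88 by accession. That bound could only lie above 0. The range for pMA over PIP was 0.65 to 1.45 for PPARG, 0.41 to 2.09 for CEBPB, 0.66 to 1.99 for VDR and 0.88 to 1.61 for ESR1. It was 0.57 to 1.30 for CEBPD, 0.15 to 0.88 for PPARD and 0.06 to 0.79 for NR1H3. No replicate could be left out. No paired analysis was possible because each group has 1 array and all carry the same replicate number. PPARG, PPARA, VDR and the named CEBPA probe lay near the lowest levels well above background, from -5.25 to -4.64, which limits their ratios.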
